A study of Drosophila melanogaster with 9 samples.

Results

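The genes for the core proteins of small nucleolar ribonucleoproteins (snoRNPs) were followed through an RNA immunoprecipitation of Larp, the fly La-related protein, from Drosophila melanogaster ovaries. The members were taken by name. They are Fib, nop5, Nop56 and hoip of the box C/D particles, Nop60B and NHP2 of the H/ACA particles, and the nucleolar protein gene Nopp140. Of these 7 genes, 6 were found by identifier among the 17024 features counted. The reference identifier of hoip was not matched to a feature, and hoip was not analysed here. All flies had the genotype larp::GFP::FLAG, so the tagged protein was present in every group, and ovaries were dissected 1 to 3 days post-eclosion. The anti-FLAG IP group (3 libraries) held RNA recovered through the tag. The IgG control group (3 libraries) held RNA recovered from the same genotype with control mouse IgG, and the input group (3 libraries) held RNA from the 10% of lysate set aside. No untagged genotype was part of the comparison.

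Small nucleolar RNAs guide the chemical modification of ribosomal RNA in the nucleolus, and each guide works inside a protein particle. In box C/D particles, fibrillarin (Fib) transfers methyl groups to ribose, the paired scaffold proteins known in yeast as Nop58 (nop5 in the fly) and Nop56 hold the guide RNA, and the human counterpart of the hoip protein binds the guide first. In H/ACA particles, the pseudouridine synthase dyskerin (Nop60B) acts together with NHP2, Gar1 and Nop10, and Nopp140 is a nucleolar phosphoprotein that associates with both kinds of particle. Mammalian LARP1 binds mRNAs that begin with a run of pyrimidines, a group that includes those of ribosomal proteins. The comparison of anti-FLAG IP with input asked which transcripts were over-represented relative to the lysate, and the comparison with IgG control asked the same relative to RNA recovered without the antibody to the tag.

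Library totals ran from 11316201 to 17571309 counts, and the floor of 3 counts lay between 0.171 and 0.265 CPM (each count scaled to a common library total). The list of cytoplasmic ribosomal protein genes held the 83 whose current symbol mapped to a counted feature, so some such genes are missing from it. These 83 genes held 8.30% to 10.6% of all counts in input and 7.21% to 8.79% with IgG. With anti-FLAG replicates 1 to 3 they held 42.3%, 49.5% and 29.5%. Values are therefore given as normalised counts, CPM after TMM scaling, which sets libraries to a common level over most genes. TMM factors were 0.550 to 0.802 in anti-FLAG IP and 1.17 to 1.31 in the other groups. Anti-FLAG IP replicate 3 stood apart in its lower ribosomal protein share and in several members, and the member values that moved most without it are given both ways. Of the ovary markers, the 4 germline genes matched summed to 2474 to 2515 CPM of total counts in input, 2360 to 2978 CPM with control IgG and 997 to 1724 CPM in anti-FLAG IP, and the 6 follicle cell genes to 7985 to 12236, 11036 to 13664 and 5817 to 9137 CPM. Single markers changed as much as some members on the TMM scale. The log2 fold change of the yolk protein gene Yp1 in anti-FLAG IP over input was 1.17 (adjusted p = 0.0923, called with the replicate block at 1.22, adjusted p = 0.0300), and that of the oocyte gene bcd was 0.93 (adjusted p = 0.0745). Both also stood above input with IgG. Mean normalised counts in input, with IgG and with anti-FLAG were 1254, 1802 and 2789 for Yp1 and 69.4, 139 and 131 for bcd. The 12 markers of other tissues summed to 64.6 to 103 CPM in input, 159 to 428 CPM with IgG and 58.0 to 140 CPM with anti-FLAG, with 3 of the 12 at 0 in all 9 libraries. Their part in the results was not tested.

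All 6 genes were among the more abundant transcripts of the ovary lysate. Levels between genes were compared as normalised counts per kilobase of exon. Nop60B stood highest in input at 229 ± 22.4 per kilobase (SD, n = 3), at the 97.1 percentile of 7649 genes with a mean of at least 10 input counts. The level of nop5 was 137 ± 27.5 per kilobase and that of its partner Nop56 was 121 ± 19.2. Nopp140 stood at 98.4 ± 13.2, Fib at 92.8 ± 17.4 and NHP2, the lowest of the group, at 86.6 ± 24.3 (percentile 91.2). Only the step from Nop60B to nop5 separated neighbours whose 3 input values did not overlap. Whole ovaries were used, so a lower level through fewer cells of a type and one through less RNA per cell cannot be told apart. In anti-FLAG IP the order was Nop60B (344 ± 176 per kilobase), nop5 (293 ± 79.6), Fib (172 ± 15.5), Nop56 (83.6 ± 36.2), Nopp140 (71.2 ± 15.8) and NHP2 (55.5 ± 43.5). By its mean, Fib stood below Nop56 and Nopp140 in input and above both here, and its 3 values here overlapped neither those of nop5 above it nor those of Nop56 below it.

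Among the box C/D genes, Fib and nop5 were about 2-fold more abundant in anti-FLAG IP than in either control on the TMM scale (with total counts their log2 fold changes were 0.021 to 0.26), whereas Nop56 was not higher. Calls required an adjusted p under 0.05 in edgeR's quasi-likelihood test together with a change of at least 2-fold. In what follows, "with anti-FLAG" and "with IgG" stand for the libraries of the anti-FLAG IP and IgG control groups. Against input 1 of the 6 members, nop5, was called higher, where 1.83% of the 7575 genes tested were called higher. None was called lower, where 0.251% of all genes were. Against IgG control 1 member, Fib, was called higher and none lower, beside 1.62% and 0.0135% of the 7408 genes tested. Of the members with a negative change, Nopp140 against input had an unadjusted p of 0.0406, the others and all those against IgG control were above 0.05, and DESeq2 called 0 members lower in either comparison. With the replicate block against input, the unadjusted p was 0.00469 for Nop56, 0.00466 for NHP2 and 0.0144 for Nopp140 (adjusted p = 0.0678, 0.0676 and 0.136), and none was called. Both comparisons use the same anti-FLAG IP libraries and are not independent.

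Fib (FBgn0003062) lies on chromosome 2R from 23072909 to 23074725 on the minus strand, with 1318 bases of exon, and encodes the methyltransferase of the particle. Its read counts were 1828, 1721 and 2172 in input, 1230, 2435 and 1899 with IgG, and 1742, 1476 and 2676 with anti-FLAG. As normalised counts these were 112, 106 and 149 in input, 72.5, 115 and 138 with IgG, and 203, 236 and 241 with anti-FLAG. On this scale all 3 anti-FLAG IP values lay above all 6 control values. They were the closest together of any member in that fraction relative to their mean (227 ± 20.4, SD). With total counts they overlapped the values of both controls. The share of all genes that separate in this way was not counted. The log2 fold change against input was 0.91 ± 0.19 (SE, adjusted p = 0.0203), which passed the p threshold, as 2.05% of all genes did in that direction, but not the minimum fold. Without input replicate 3 it was 1.07 (adjusted p = 0.0171) and passed both. Against IgG control it was 1.07 ± 0.25 (adjusted p = 0.0479) and Fib was called. Over the 17 alternatives this adjusted p ran from 0.000343 to 0.616, and leaving out IgG control replicate 1, in which Fib was lowest, gave a log2 fold change of 0.85 (adjusted p = 0.195). The call was also lost without IgG control replicate 2 (adjusted p = 0.118), anti-FLAG IP replicate 1 (adjusted p = 0.0605) or anti-FLAG IP replicate 2 (adjusted p = 0.219). Fib kept its call in 7 of the 17 alternatives, among them the replicate block at a log2 fold change of 1.12 (adjusted p = 0.00662).

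The gene nop5 (FBgn0026196, chromosome 2L, 6916753 to 6918743, minus strand, 1813 exonic bases) encodes one of the paired scaffold proteins. It had 3332, 3851 and 4418 counts in input, 3301, 5442 and 4569 with IgG, and 3608, 2982 and 7702 with anti-FLAG. Normalised counts were 204, 238 and 302 in input, 195, 257 and 332 with IgG and 421, 476 and 694 with anti-FLAG. On this scale the anti-FLAG IP values again lay above all 6 control values, with replicate 3 the highest in each of the 3 fractions. With total counts they overlapped the values of both controls. The log2 fold change against input was 1.11 ± 0.22 (SE, adjusted p = 0.0127). Same-numbered libraries gave log2 ratios of 1.05, 1.00 and 1.20, the narrowest spread of the members against input. Without anti-FLAG IP replicate 3 the log2 fold change was 0.85 (adjusted p = 0.0065), below the minimum fold, and without input replicate 1 or input replicate 2 the adjusted p was 0.12 and 0.105. Against IgG control the log2 fold change was 1.03 ± 0.25 with an adjusted p of 0.0540, just short of a call, and it was called without anti-FLAG IP replicate 1 (adjusted p = 0.0253) or IgG control replicate 3 (adjusted p = 0.0400). With the replicate number as a block, nop5 was called against IgG control at a log2 fold change of 1.03 (adjusted p = 0.00217). That made 2 members called higher there, and the share of all genes called higher in that fit is not given here.

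Nop56 (FBgn0038964, chromosome 3R, 22419095 to 22421068, minus strand, 1746 exonic bases) encodes the partner of nop5 in the scaffold. Its counts were 3152, 3086 and 3651 in input, 2818, 3556 and 3031 with IgG, and 963, 668 and 2430 with anti-FLAG. Normalised counts were 193, 191 and 250 in input, 166, 168 and 220 with IgG, and 112, 107 and 219 with anti-FLAG. Anti-FLAG IP replicates 1 and 2 lay below every control value, while replicate 3 lay among them. The log2 fold change was -0.52 ± 0.26 against input (SE, adjusted p = 0.406) and -0.33 ± 0.28 relative to IgG control (adjusted p = 0.919). Without anti-FLAG IP replicate 3 it was -0.95 against input (adjusted p = 0.00388), past the p threshold but short of the minimum fold, and its value relative to IgG control was -0.74 (adjusted p = 0.148).

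**Figure D1:**
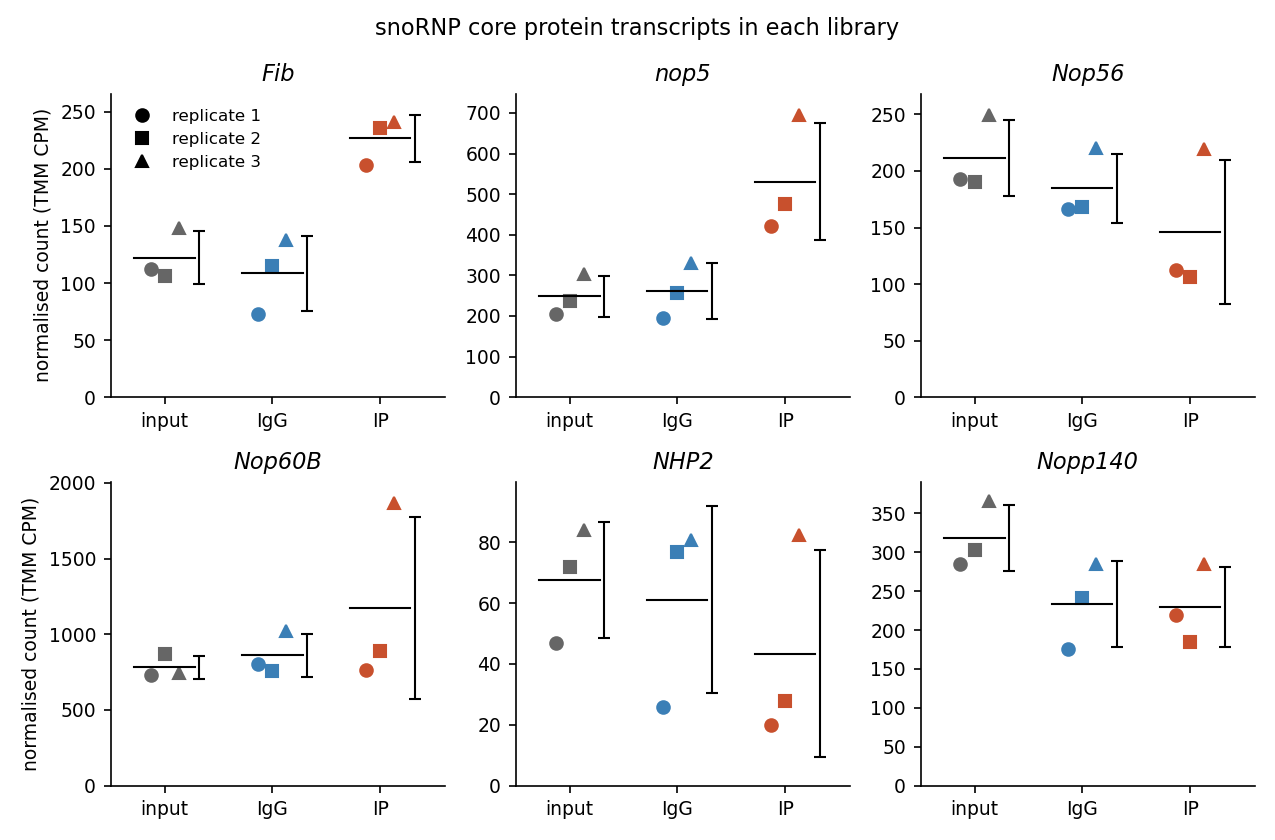
Normalised counts (TMM CPM, vertical axis from 0, scaled separately for each gene) of the 6 member genes in input, IgG control and anti-FLAG IP. Symbols are single libraries by replicate number, horizontal lines are group means and bars are SD (n = 3). Fib (203 to 241) and nop5 (421 to 694) in anti-FLAG IP sit above all control libraries on this scale but not with total counts. Replicate 3 alone is high for Nop60B at 1864.

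Within the H/ACA pair, neither gene passed the test, and both turned on anti-FLAG IP replicate 3. Nop60B (FBgn0259937) lies on chromosome 2R from 24174877 to 24186343 on the plus strand, with 3412 exonic bases, and encodes dyskerin, the enzyme of the particle. Its counts were 11955, 14075 and 10838 in input, 13604, 15994 and 14096 with IgG, and 6552, 5587 and 20688 with anti-FLAG. Normalised counts were 732, 869 and 742 in input, 802, 755 and 1023 with IgG, and 765, 892 and 1864 with anti-FLAG. Replicates 1 and 2 of the precipitate lay within the control range, and only replicate 3 lay above it. The log2 fold change was 0.60 ± 0.30 against input (SE, adjusted p = 0.400) and 0.45 ± 0.31 relative to IgG control (adjusted p = 0.877). Without anti-FLAG IP replicate 3 the values were 0.084 and -0.044.

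NHP2 (FBgn0029148, chromosome 3L, 14801328 to 14802168, minus strand, 781 exonic bases) encodes a small RNA-binding protein of the same particle. It had 766, 1162 and 1230 counts in input, 438, 1630 and 1112 with IgG, and 171, 174 and 913 with anti-FLAG. The normalised counts were 46.9, 71.8 and 84.2 in input, 25.8, 76.9 and 80.7 with IgG, and 20.0, 27.8 and 82.3 with anti-FLAG. Replicates 1 and 2 of anti-FLAG IP were low, but IgG control replicate 1 lay between them, and replicate 3 of anti-FLAG IP was at the level of the controls. The log2 fold change was -0.62 ± 0.48 against input (SE, adjusted p = 0.635) and -0.49 ± 0.55 relative to IgG control (adjusted p = 0.970). These were the widest errors among the members. Without anti-FLAG IP replicate 3, NHP2 was called lower than input at -1.51 (adjusted p = 0.00492). Against IgG control the same omission gave -1.35 (adjusted p = 0.209) and no call.

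Nopp140 (FBgn0037137, chromosome 3L, 21832774 to 21836685, plus strand, 3232 exonic bases) was the member that differed most between the controls. It had 4645, 4914 and 5347 counts in input, 2975, 5100 and 3918 with IgG, and 1882, 1157 and 3167 with anti-FLAG. Normalised counts were 285, 304 and 366 in input, 175, 241 and 284 with IgG, and 220, 185 and 285 with anti-FLAG. The precipitates on the tag antibody and on IgG covered nearly the same range, and every IgG control value lay below every input value. The share of all genes with such a separation was not counted. Its log2 fold change was -0.45 ± 0.20 against input (SE, adjusted p = 0.317) and -0.016 ± 0.24 relative to IgG control (adjusted p = 0.998). Without anti-FLAG IP replicate 3 these were -0.65 (adjusted p = 0.0290, short of the minimum fold) and -0.20 (adjusted p = 0.910).

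The comparison of IgG control with input measured what the procedure recovered without the tag antibody. No gene of 7594 was called higher (0%) or lower (0%) by edgeR, with 465 at an unadjusted p under 0.05, and DESeq2 called 19 higher and 6 lower, none of them a member. Nopp140 had the largest change of the 6 at -0.44 ± 0.19 (SE, unadjusted p = 0.0395, adjusted p = 0.802). The other members had log2 fold changes from -0.19 for Nop56 to 0.14 for Nop60B. For Fib and nop5, the values were -0.17 and 0.076.

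**Figure D2:**
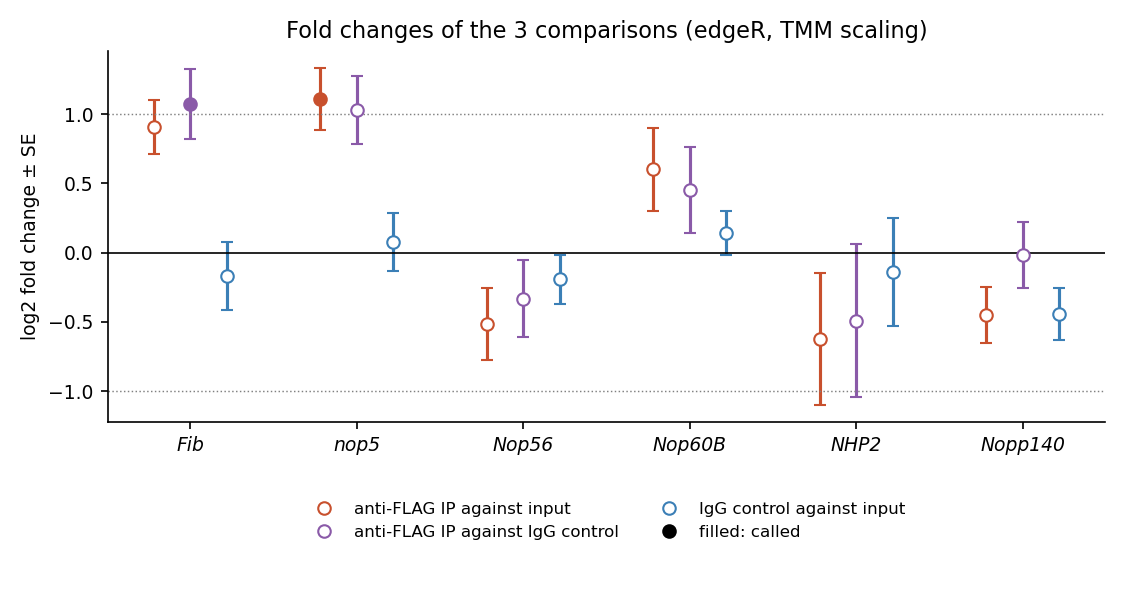
Log2 fold changes (vertical axis) with SE bars for the 6 members in the 3 comparisons, from edgeR fits of 3 against 3 libraries, with dotted lines at a 2-fold change. Filled symbols passed both thresholds, which were nop5 against input (1.11) and Fib against IgG control (1.07). The values of IgG control against input lie between -0.44 and 0.14.

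Partner genes were also compared by the ratio of their read counts within a library, which no scaling between libraries can change. These ratios use the same counts as the fits above and are not independent of them. The pairs were chosen after the values had been seen. The ratio of nop5 to Nop56 was 1.06, 1.25 and 1.21 in input, 1.17, 1.53 and 1.51 with IgG, and 3.75, 4.46 and 3.17 with anti-FLAG. The anti-FLAG IP ratios were 3.21-fold those of input and 2.70-fold those of IgG control as geometric means, and did not overlap with either. The ratio of Fib to Nop56 was 0.580, 0.558 and 0.595 in input, 0.436, 0.685 and 0.627 with IgG, and 1.81, 2.21 and 1.10 with anti-FLAG, higher by 2.84-fold and 2.86-fold without overlap. For each of these 4 differences the exact two-sided permutation p was 0.1, the smallest that 3 against 3 libraries allow, and 0.24 after adjustment over the 12 ratio tests. By contrast, the ratio of Fib to nop5 was 0.549, 0.447 and 0.492 in input and 0.483, 0.495 and 0.347 in anti-FLAG IP, which overlapped (0.88-fold, exact permutation p = 0.5, adjusted p = 0.655). In the H/ACA pair, the ratio of Nop60B to NHP2 was 15.6, 12.1 and 8.81 in input, 31.1, 9.81 and 12.7 with IgG, and 38.3, 32.1 and 22.7 with anti-FLAG. It was 2.56-fold higher than in input, with same-numbered log2 differences of 1.30, 1.41 and 1.36 (exact permutation p = 0.1, adjusted p = 0.24). Against IgG control it was 1.93-fold and overlapped, since IgG control replicate 1 had a high ratio (exact permutation p = 0.2, adjusted p = 0.343).

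**Figure D3:**
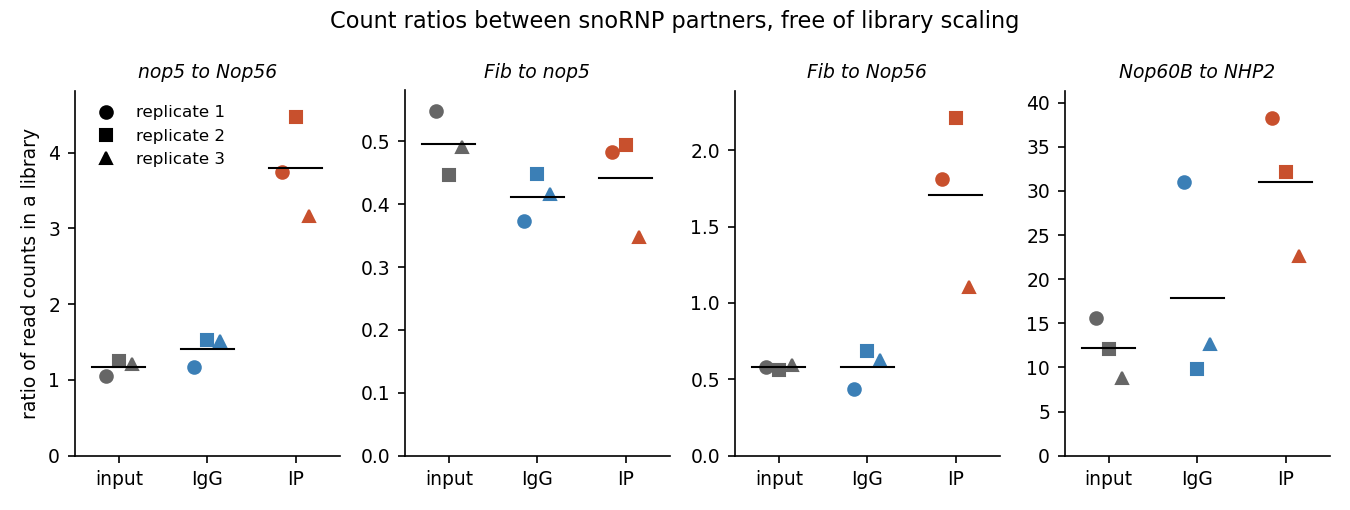
Ratios of read counts between 2 member genes within each library (vertical axis from 0, no unit), by fraction, with symbols for replicate numbers and lines for means (n = 3). The nop5 to Nop56 and Fib to Nop56 ratios of anti-FLAG IP lie above all control libraries (3.17 to 4.46 and 1.10 to 2.21), and the Fib to nop5 ratios overlap between fractions.

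The size of the members' changes depended on the scaling, as did the direction for Nop60B. When libraries were scaled by their totals, the log2 fold changes of all genes centred on a median of -0.88 relative to input and -0.84 relative to IgG control. On that scale Fib was at 0.021 and 0.22 and nop5 at 0.26 and 0.22, and neither was called. Nop60B turned to -0.22 and -0.32. Nop56 was called lower in both comparisons, at -1.34 (adjusted p = 0.00804) and -1.11 (adjusted p = 0.0307), and Nopp140 was called lower than input at -1.30 (adjusted p = 0.00315). Such calls were common on that scale. Of all genes tested, 2212 of 7575 were called lower against input and 1387 of 7408 against IgG control. Relative to the median of all genes, the changes against input by total counts were 0.90 for Fib, 1.14 for nop5, 0.66 for Nop60B, -0.46 for Nop56, -0.52 for NHP2 and -0.43 for Nopp140. The 6 members together held 0.216% ± 0.009 of all counts in input, 0.207% ± 0.041 with IgG and 0.165% ± 0.093 with anti-FLAG (SD, n = 3), where replicates 1 to 3 were at 0.117%, 0.106% and 0.271%.

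**Figure D4:**
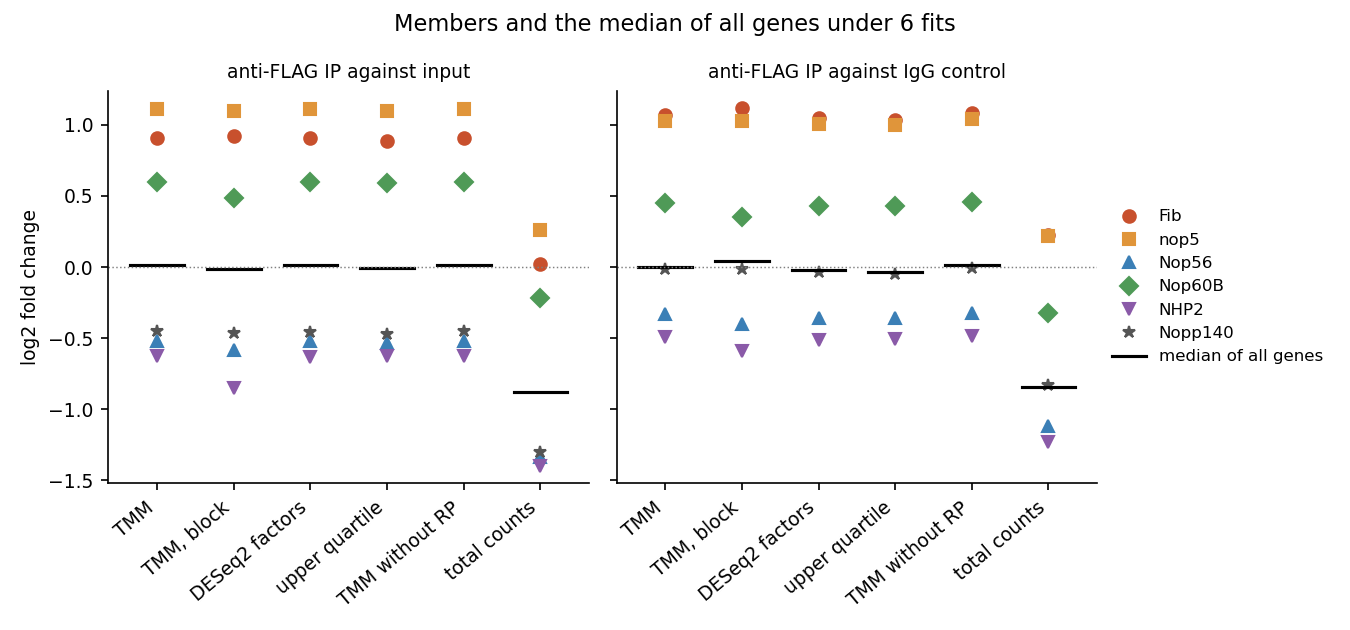
Log2 fold changes (vertical axis) of the 6 members under 6 edgeR fits that differ in scaling or in the replicate block, against input (left) and IgG control (right), with the median of all genes as black bars. Under total counts the median falls to -0.88 and -0.84 and the members fall with it, with Fib and nop5 above the median in each fit.

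Other genes were taken from lists of related function. One list held 13 genes for further snoRNP, assembly and U3 processome proteins and for other ribosomal RNA processing proteins (Dis3 and Nnp-1). Of these 13, 0 were called against input and 0 against IgG control by edgeR. Their medians were -0.15 and -0.081 beside 0.014 and 0.0014 for all genes. The highest was Gar1, a core H/ACA protein, at 0.89 against input (adjusted p = 0.124), and its value against IgG control was 0.85 (adjusted p = 0.303). The lowest was CG11920 at -0.59 and -0.76. Nnp-1 passed the p threshold against input (0.78, adjusted p = 0.0466) but not the minimum fold, and Nop10, also of the H/ACA core, was at -0.17 (adjusted p = 0.933). Mean normalised counts of Nnp-1 were 154 in input, 205 with IgG and 263 with anti-FLAG. Of the 7 host genes that carry small nucleolar RNAs in their introns and encode no known protein, 6 were tested and 0 were called. They ranged against input from -0.48 for Uhg4 to 1.15 for Uhg8 (adjusted p = 0.690), with a median of 0.20. The value of Uhg8 came from 1 library, with normalised counts of 3.74, 4.79 and 50.2 in anti-FLAG IP replicates 1 to 3 beside 5.39, 6.98 and 14.4 in input. Uhg5 was at 1.09 against input (adjusted p = 0.0766) and was called with the replicate block at 1.06 (adjusted p = 0.0152). Its mean normalised counts were 40.2 in input, 67.9 with IgG and 84.8 with anti-FLAG, so the IgG mean also stood above input.

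Of 10 genes for other nucleolar factors, 1 was called against input and 2 against IgG control, with medians of 0.27 and 0.29. They were Non1, a nucleolar GTPase, at 1.42 (adjusted p = 0.00209) and 1.96 (adjusted p = 8.38e-05), and Ns2, a nucleostemin-family GTPase, at 0.97 (adjusted p = 0.0221, below the minimum fold) and 1.48 (adjusted p = 0.00732). The lowest of that list were mbm against input at -0.075 and Surf6 against IgG control at -0.14. The size of the changes in Fib and nop5 can be placed beside the matched cytoplasmic ribosomal protein genes. Of these, 76 of 79 tested were called higher against input, with a median log2 fold change of 3.08. The 6 members had a median of 0.074 against input and 0.22 against IgG control. The transcript of the bait, larp, was at 1.05 against input, with an adjusted p of 0.486 (called with the replicate block at 1.08, adjusted p = 0.000388), and at 0.90 relative to IgG control, with an adjusted p of 0.882.

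Profiles over the 9 libraries were compared by the root mean square difference of centred log2 normalised counts. Fib and nop5 were the members most alike (0.197), followed by Nop56 and Nopp140 (0.241), while Fib and NHP2 were the least alike (0.965). The partners nop5 and Nop56 differed by 0.757. Among 6673 other genes, the closest profile to Fib was that of Nap1 (0.137), which encodes a histone chaperone, and the closest to nop5 was that of the initiation factor gene eIF1A (0.164). The closest to Nop56 was Ifrd1 (0.125), to Nop60B CG8635 (0.163), to NHP2 Gli (0.202) and to Nopp140 alphaSnap (0.103). These distances are descriptions over libraries that share 3 fractions.

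Several members overlap other annotated genes. Exons of Nop60B share 83 to 98 bases each with 6 genes for small nucleolar RNAs on the same strand, all of which had 0 counts in the 9 libraries. How reads in shared bases were assigned is not given in the sources used here, so these 0 counts do not show that the RNAs were absent. The level of Nop60B per kilobase includes the shared bases in its length. The introns of Fib and nop5 hold small nucleolar RNA genes with no shared exon base. One of these, snoRNA:229 inside Fib, had up to 88 counts, and the other had none. The gene x16, whose span overlaps nop5 without a shared exon base, had 1330 to 3500 counts. Nopp140 shares 21 exonic bases with P5CDh1 on the opposite strand, which had 1066 to 3982 counts, and the strand setting of the counting is not given in the sources used here.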

How the data were processed

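Polyadenylated RNA was made into directional libraries after 13 min of fragmentation. Per the submitters' processing notes, the tools were HISAT2 2.1.0 and featureCounts 1.4.6 and the build was dm6. The annotation release and strand setting are not given in the sources used here. The authors deposited raw read counts per gene identifier, without normalization. Of 17024 features, 16647 had a symbol and the rest stayed in totals and tests. The first feature has a shortened identifier and no symbol, and held 7.89% of the counts in IgG control replicate 1. Positions and exon lengths came from BDGP6.54, Ensembl release 115.

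Groups and replicate numbers came from the labels. Nothing states that replicates came from separate flies, so p-values measure the spread between these libraries. Deviations from group means of same-numbered libraries correlated at 0.159 to 0.436 over 6845 genes (different numbers, -0.349 to 0.123). The numbers were used as pairs only in the replicate block and in same-numbered ratios. The main fits and the permutation tests did not use the pairing. Each comparison was fitted on its 6 libraries with edgeR 4.0.16 in R 4.3.3, using filterByExpr, TMM and robust quasi-likelihood F tests, with Benjamini-Hochberg adjustment over all genes tested. DESeq2 1.42.0, other scalings, no filter, all 9 libraries together, the replicate block and omission of libraries were alternatives. All 6 members passed the filter. Exact permutation tests used scipy 1.17.1. The fits were also run on simulated counts, drawn independently for each library with equal numbers of genes raised and lowered. That setting holds neither the ribosomal protein shift of anti-FLAG IP nor the correlation of same-numbered libraries, and its outcome is not used here. Floors cover counting error only.

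All members, the bait, the closest profile to each member (mean count of 50 or more, pseudocount 1), and the called, highest and lowest genes of each list were named, and others were named after their values were seen. The members and lists were chosen with earlier results of these data known.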

Additional observations from a re-analysis of the deposited data

How the results depend on the processing

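Over 306 alternative values of single members, 259 kept their direction and their side of the thresholds, 16 lost a call, 15 gained one and 16 turned in sign. Only Fib against IgG control and nop5 against input had a call to lose. Fib kept its call in 7 of 17 alternatives and nop5 in 11 of 17. Members called higher against input numbered 1, but 0 with total counts alone, 2 with no minimum fold and 0 to 2 with replicates left out. Of the single libraries, leaving out anti-FLAG IP replicate 3, input replicate 1 or input replicate 2 gave 0, and leaving out input replicate 3 gave 2. Of all genes, 2.05% were called higher with no minimum fold, and the number with total counts is not given here. Members called lower against input numbered 0, but 2 with total counts alone and 0 to 1 with replicates left out. Against IgG control, 1 member was called higher, 2 with the replicate block, with TMM without ribosomal protein genes, with DESeq2, with no filter and with all 9 libraries together, and 0 with total counts, DESeq2 size factors and upper-quartile factors. Leaving out replicates gave 0 to 2, with 0 without anti-FLAG IP replicate 2, IgG control replicate 1 or IgG control replicate 2 and 2 without IgG control replicate 3. Members called lower there went from 0 to 1 with total counts. The replicate block changed no other member's call.

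Signs turned for Nop60B with total counts (-0.22 against input, -0.32 against IgG control), and otherwise only with libraries left out. Against IgG control the ranges were -0.044 to 0.69 for Nop60B and -0.20 to 0.15 for Nopp140. For IgG control against input they were -0.38 to 0.054 for Fib, -0.14 to 0.25 for nop5, -0.39 to 0.23 for NHP2 and -0.036 to 0.31 for Nop60B. The log2 difference in the Fib to nop5 ratio against IgG control ran from -0.056 to 0.26, and that in the Fib to Nop56 ratio of IgG control against input from -0.17 to 0.19. These ratio omissions were chosen after seeing the data. Over all genes, 139 were called higher and 19 lower against input. The lower count was 75 with the block, 2212 with total counts, 51 with DESeq2, 56 with no filter and 29 with no minimum fold, and replicates left out gave 0 to 232 higher and 0 to 145 lower. Against IgG control the 1 gene called lower became 5 with the block, 1387 with total counts, 16 with DESeq2, 15 with no filter and 0 to 20 with replicates left out. For the further snoRNP, processing and host genes, 0 called higher against input became 1 with the block, DESeq2, no filter or no minimum fold. The 0 called lower became 7 with total counts and 2 without anti-FLAG IP replicate 3. For IgG control against input, the counts over all genes went from 0 to 6 higher and 2 lower with the block. Without anti-FLAG IP replicate 3, 213 genes were called higher and 145 lower against input, more than with all libraries. Total counts do not correct for composition and omissions leave fewer libraries, but the cause of the shifts in all these settings was not tested. A planned search for pyrimidine runs at the annotated starts was not run. Limits of depth were small for the members, whose lowest count was 171, and 3 libraries a group limit the precision.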

Other observations

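Genes for RNA polymerase I, which transcribes the ribosomal RNA that snoRNPs modify, showed no called change. Of 8 tested, 0 were called against input and 0 against IgG control by edgeR. They ranged from -0.76 for Tif-IA, the initiation factor of the polymerase (adjusted p = 0.151), to 0.33 for the subunit gene Polr1F against input, and from -0.71 for Polr1D to 0.43 for Polr1B against IgG control. The value of Polr1D came from 1 library, with normalised counts of 0, 5.47 and 29.8 in IgG control replicates 1 to 3 beside 4.44, 4.31 and 12.6 in anti-FLAG IP. Their medians were 0.15 and -0.15.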
